A study of Mus musculus with 16 samples.

Results

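Among 16 RNA-seq libraries of sorted cells from mouse retinal organoids, the 5 libraries of day 18 were divided by their level of Nrl, the transcription factor that sets rod fate. The division was made from measured values: libraries with Nrl under 50 CPM (read counts scaled to a common library size) formed one set of 2, labelled ESC replicate 1 and iPSC replicate 1, and those at 50 CPM or more formed the other set of 3, labelled ESC replicates 2 and 3 and iPSC replicate 2. They are called the low-Nrl and the higher-Nrl libraries here. The comparison took in the 14084 of 32166 genes that reached 1 CPM in 2 or more of the 5 libraries.

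All groups carried the same genotype, Nrlp-GFP, a transgene in which the promoter of Nrl drives green fluorescent protein, and GFP-positive cells were sorted in every case. Embryonic stem cell (ESC) clones came from blastocysts of 3.5 days, and induced pluripotent stem cell (iPSC) clones from E14.5 embryonic fibroblasts infected with inducible lentiviral vectors for Oct3/4, Sox2, Klf4 and c-Myc. Cells of passage 15 to 25 were differentiated by the SFEBq method, a floating aggregate culture, at 5% oxygen to day 10 and 20% afterwards. Taurine (1 mM) and retinoic acid (500 nM) were added, the latter given as from day 14 in one place of the protocol and with the day 10 medium change in another, and kept to day 26. Day 18 had 3 ESC and 2 iPSC libraries, and 11 libraries covered days 21, 25, 28 and 35. The labels do not say which clone or which culture a library came from, so the p-values below rest on variation among the libraries that could be technical.

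Rods are born from dividing retinal progenitors, which express Pax6, Sox2 and Hes1 and pass through Notch-regulated neurogenesis. Cells leaving the cycle switch on Otx2 and Crx, and then Nrl with its target Nr2e3 directs them to the rod rather than the cone program. Genes of the outer segment and of light detection follow.

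Several facts of the libraries stand before the results. Library totals were 11137098 and 17674477 estimated counts in the low-Nrl libraries, and 4190909, 5412725 and 21787582 in the higher-Nrl libraries. The summed CPM of 4 Y-linked genes was 7.48 and 9.76 in the low-Nrl libraries and 100.2, 97.2 and 144.0 in the others. The 8 other ESC libraries had 82.6 or more, and iPSC libraries other than day 18 replicate 2 had 43.1 or less, so the libraries labelled ESC replicate 1 and iPSC replicate 2 went against the rest of their source. Cell line or sex therefore runs with the Nrl level and cannot be told apart from it, and replicate number 1 also coincides with the low-Nrl set. The library labelled ESC replicate 2 stood apart in the summed CPM of 17 fibroblast and mesenchyme markers, 421.2, against 40.0 to 130.9 in the other 4, and its defining collagen gene Col3a1 was at 90.1 CPM against 0.83 to 2.2. Ttr, a gene of the pigment epithelium list, was at 1554 CPM in that library against 11.7 to 134 in the other 4.

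Nrl (chr14:55518978-55524981, minus strand, GRCm38) was at 17.7 CPM in ESC replicate 1 and 15.99 in iPSC replicate 1. It was at 202.6, 135.8 and 881.3 CPM in ESC replicate 2, ESC replicate 3 and iPSC replicate 2. The values nearest the threshold were thus 17.7 below and 135.8 above, and the 11 later libraries ran from 320.6 to 1921 CPM.

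In the low-Nrl libraries, progenitor and cell division genes were high and photoreceptor genes were low. Counting genes whose values did not overlap between the sets and whose means differed at least 2-fold on the log2(CPM + 1) scale, 841 of 14084 were higher in the low-Nrl libraries (5.97%) and 679 were lower (4.82%). Because the sets were chosen on Nrl, these counts are a description and no test was made. The differences were larger among the lower genes, of which 157 passed 4-fold against 55 of the higher genes, and the median over all genes was 0.06 (log2). The low-Nrl pair lay above all 14 other libraries in 648 of the 841 higher genes, and below all 14 in 543 of the 679 lower genes. In a bulk sample, fewer cells of a type and less RNA per cell cannot be told apart.

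**Figure D1:**
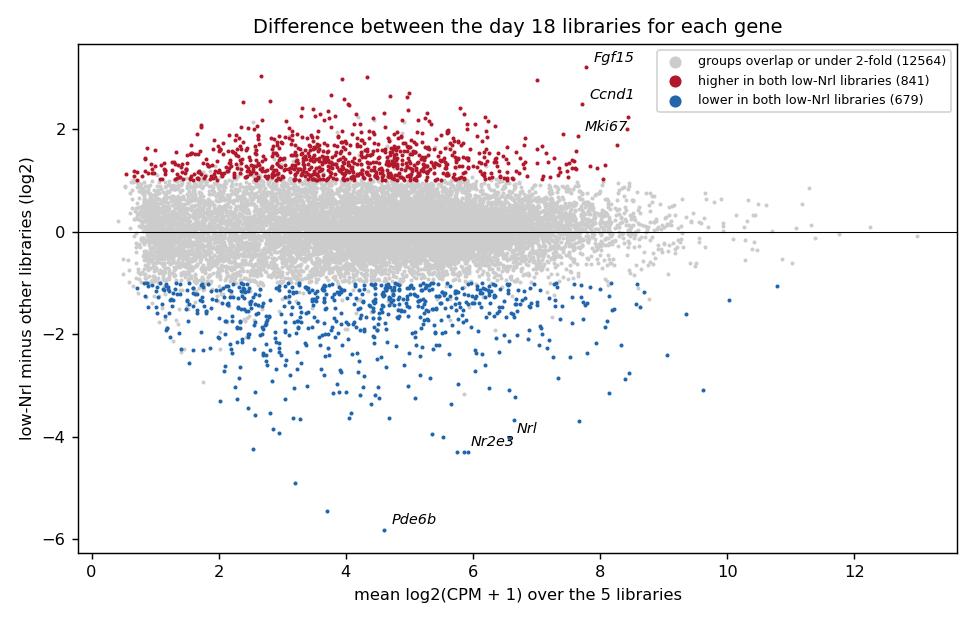
Each point is 1 of 14084 genes, with its mean log2(CPM + 1) over the 5 day 18 libraries on the x axis and the mean of the 2 low-Nrl libraries minus the mean of the 3 others on the y axis. Red marks the 841 higher and blue the 679 lower genes; the lower genes reach farther from 0 (Pde6b, -5.81) than the higher ones (Fgf15, 3.20).

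The low-Nrl libraries were close to each other. Only 47 genes differed at least 2-fold between them, against 2203 to 2850 genes in pairs of the higher-Nrl libraries, and across 15202 genes their Pearson correlation of 0.992 ranked 1 of all 120 library pairs (genes are not independent replicates). Their counts differed by more than counting noise, with a chi-square of 8.72 per degree of freedom over 8859 genes, but so did those of all 120 pairs, and this pair had the lowest value (the next was 13.7 and the highest 442.0). These values do not show whether the 2 libraries came from separate cultures or repeat one, and they were kept as labelled. The counts were 937 higher and 742 lower genes without ESC replicate 1, and 853 and 705 without iPSC replicate 1. With fewer libraries the no-overlap condition is easier to meet. The higher-Nrl libraries were not alike, and ESC replicate 3 was the nearest of them to the low-Nrl pair in 425 of the 841 higher genes.

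Progenitor genes led the higher genes. Fgf15 (chr7:144896531-144900953, plus strand), a secreted growth factor of retinal progenitors, was at 801 and 868 CPM in the low-Nrl libraries and at 28.6, 387 and 63.8 in ESC replicates 2 and 3 and iPSC replicate 2, a difference of 3.20 (log2). The ESC replicate 3 value was the closest to the low-Nrl pair, and the sets did not overlap. Of 25 progenitor genes compared, 17 were higher in the low-Nrl libraries and none lower, with a median difference of 1.60. Without ESC replicate 2 the count was 13.

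Ccnd1, the cyclin of the G1 phase, was at 601 and 578 CPM against 12.4, 291 and 305. ESC replicate 2 had the lowest level of the 5. Pax6, the eye field factor, was at 446 and 488 CPM against 176, 234 and 162, and Sox2 at 73.3 and 79.0 against 37.7, 47.8 and 23.2. The Notch effector Hes1 was at 49.2 and 53.5 CPM against 9.08, 36.3 and 12.3. Rax, another eye field factor, was an exception, at 73.2 and 47.4 CPM against 8.54, 289 and 127, with overlap.

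Genes of Notch signalling, by which progenitors hold each other back from differentiation, were higher in 6 of 22 compared and lower in none, with a median of 0.69. Lfng, a glycosyltransferase that modifies Notch, was at 43.2 and 30.9 CPM against 6.25, 20.9 and 9.36. Hes5, a target of Notch, overlapped, at 64.7 and 42.6 against 2.18, 53.6 and 8.76. Of 20 neurogenic factors, 6 were higher, among them Foxn4 and Neurod2, and 1, Otx2, was lower.

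Cell division genes were higher as a group. Of 34 mitosis genes, 31 were higher in the low-Nrl libraries and none lower (median 1.38), and of 36 DNA replication genes 23 were higher and none lower (median 1.25). Mki67, the proliferation marker, was at 406 and 462 CPM against 66.4, 146 and 172. Top2a, the topoisomerase of dividing cells, was at 352 and 403 CPM against 53.7, 197 and 189. The other 3 libraries still held 53.7 or more of Top2a, and ESC replicate 2 was the lowest in both genes.

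Mcm6, a subunit of the replicative helicase, was at 137 and 152 CPM against 25.4, 45.0 and 50.8. Leaving out ESC replicate 2 lowered the mitosis count from 31 to 18 and the replication count from 23 to 18. Leaving out the pair whose Y-linked genes go against their source left only iPSC in the low-Nrl set and only ESC in the other. Source and Y-linked level then ran with the division, so that exclusion cannot show whether these counts hold.

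The largest higher genes included others outside the progenitor list. Aldh1a1, a retinoic acid synthesis enzyme, was at 407 and 471 CPM against 4.92, 159 and 189. Of 10 forebrain transcription factors compared, 8 were higher and none lower (median 1.63), with Dlx1 at 36.7 and 28.5 CPM against 2.07, 15.1 and 6.50. Of 29 growth factor signalling genes, 11 were higher and none lower (median 0.78). This list overlaps the progenitor list, as Fgf15 is counted in both. The 39 Hox genes in the table, looked at after their values were seen, had a summed CPM of 331.0 and 319.1 in the low-Nrl libraries and 265.3, 84.5 and 10.98 in the others; 14 passed the filter and 4 of these were higher.

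Photoreceptor genes were lower. Crx, the homeobox factor of all photoreceptors, was at 192 and 197.8 CPM in the low-Nrl libraries against 742, 871 and 1728, so it was low but present. Nr2e3, the nuclear receptor that represses cone genes in rods, was at 8.76 and 8.65 CPM against 76.0, 125 and 709. Of 15 photoreceptor transcription factors compared, 9 were lower and none higher (median -1.34), Nrl, which defined the sets, being one of them. Neurod1 did not separate the sets, at 239 and 264 CPM against 239, 696 and 1500.

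Genes of the rod light response were lower in 16 of 22 compared, with none higher and a median of -2.37. Pde6b (chr5:108388391-108432397, plus strand), a subunit of the phosphodiesterase, was at 1.45 and 0.925 CPM against 274, 27.2 and 232, the largest difference among the separated genes, -5.81. Sag, rod arrestin, was at 9.30 and 9.05 CPM against 339.8, 69.1 and 339.

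The label of rod-like libraries held only in part. Cngb1, a subunit of the rod cation channel, was at 0.285 and 0.214 CPM in the low-Nrl libraries and at 8.40, 0.941 and 95.0 in the others, against 13.3 to 1066 in the 11 later libraries. Gnat1, rod transducin, did not separate the sets, at 5.17 and 4.68 CPM against 4.29, 1.97 and 5.73. Cone genes were also lower in the low-Nrl libraries, 8 of 14 compared with a median of -1.50. Opn1sw, the short-wave cone opsin, was at 3.36 and 2.04 CPM against 21.5, 47.5 and 84.3. The sets are therefore named by their Nrl level.

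Of 26 outer segment and cilium genes 17 were lower (median -2.02), and of 24 ribbon synapse genes 11 were lower (median -1.21). Prph2, a disc rim protein, was at 8.05 and 7.97 CPM against 145, 109 and 341, and Rp1, a microtubule protein of the outer segment, at 5.58 and 8.62 against 50.6, 61.0 and 569.5. Leaving out iPSC replicate 2, the library with the highest Nrl, gave 13 outer segment genes with a median of -1.05. Of 26 genes of glycolysis and the hypoxia response, 7 were lower and none higher (median -0.61), namely the glycolytic enzymes Hk1, Aldoa, Aldoc, Eno2 and Ldha and the hypoxia response genes Ndrg1 and Ankrd37. Aldoa was at 662 and 547 CPM against 1451, 1736 and 1366, and Ndrg1 at 79.4 and 84.4 against 252, 288 and 1073.

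**Figure D2:**
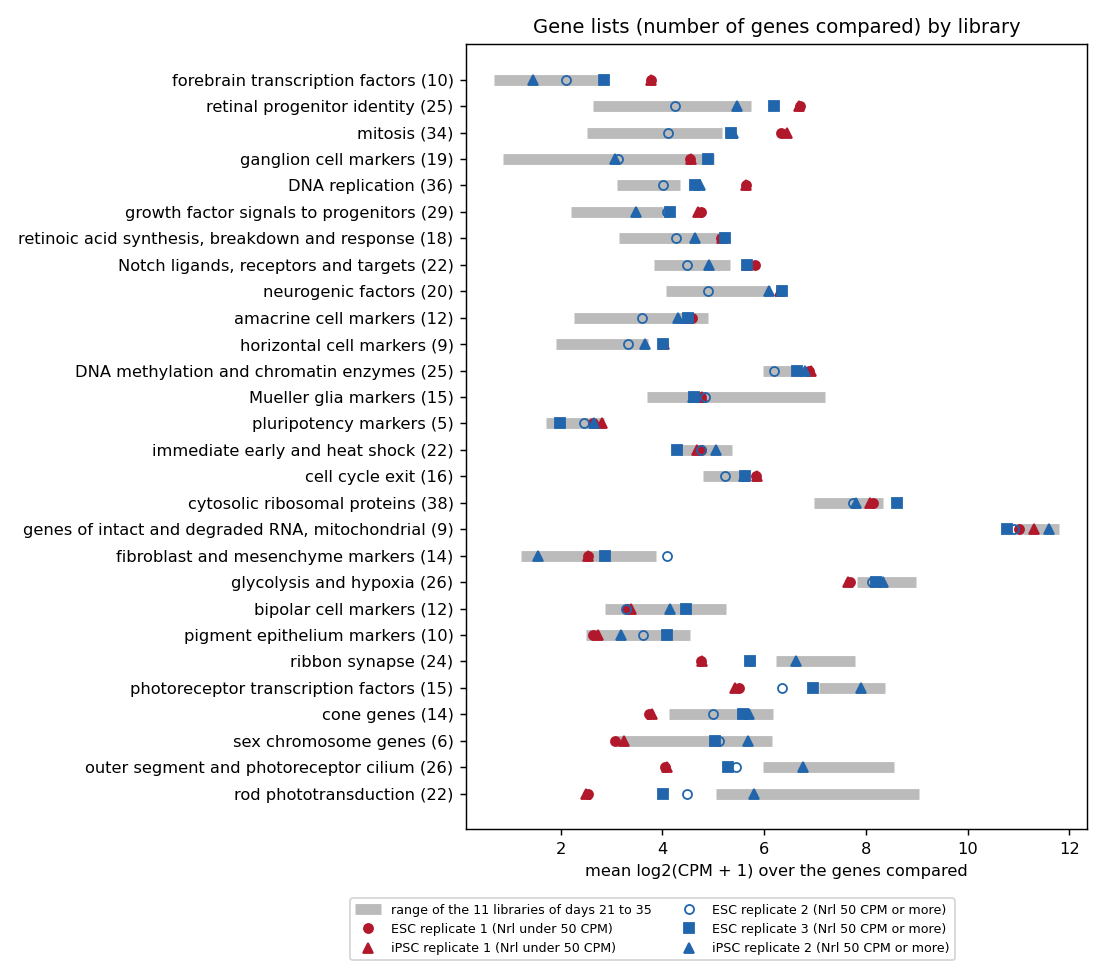
Mean log2(CPM + 1) over the genes compared in each list (x axis), for the 5 day 18 libraries (symbols) and the range of the 11 later libraries (grey bars), lists ordered by their median difference. The 2 red symbols nearly coincide in most lists; in rod phototransduction they lie at 2.53 and 2.49, below all later libraries (5.06 to 9.05).

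**Figure D3:**
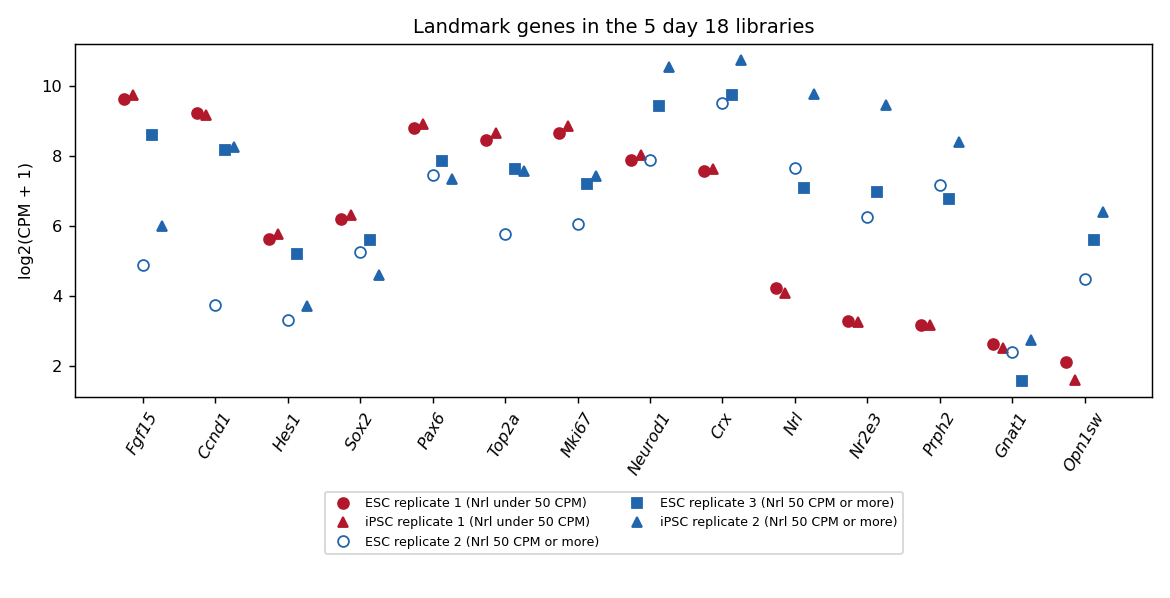
Log2(CPM + 1) of 14 landmark genes in the 5 day 18 libraries, red for Nrl under 50 CPM and blue for 50 or more, symbols by library. The red symbols lie above the blue from Fgf15 to Mki67 and below them for Crx, Nrl, Nr2e3, Prph2 and Opn1sw; Neurod1 and Gnat1 overlap.

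Markers of other cells were set beside these groups. Of 9 horizontal cell genes 1 was higher and 1 lower, of 12 amacrine genes 4 and 2, of 19 ganglion cell genes 5 and 2 (14 and 1 without ESC replicate 3), of 12 bipolar genes 1 and 4, of 15 Müller glia genes 2 and 3, and of 10 pigment epithelium genes 0 and 2. Otx2, given above as the lower neurogenic factor, was also among the lower genes of both the bipolar and the pigment epithelium lists. Rpe65, the isomerase of the pigment epithelium, and Zfp42, a stem cell factor, were listed at 0 in all 5 libraries. Pou5f1, another stem cell factor, was at 0.479 and 1.11 CPM against 0, 0.635 and 1.67. Of the 15 pluripotency markers 5 were compared, and 2 of these, Sox2 and Klf4, were higher and none lower (median 0.17). Klf4 was at 8.66 and 7.81 CPM against 6.43, 0.625 and 3.88. The 15 markers summed to 88.8 and 94.9 CPM against 53.1, 54.5 and 39.8, most of it in the low-Nrl libraries from Sox2, which retinal progenitors also express. Pou4f2, a ganglion cell factor, was at 18.0 and 20.4 CPM against 0, 16.6 and 1.37. None of 14 fibroblast markers, 38 ribosomal protein genes or 9 mitochondrial genes was higher or lower. The part of other cell types in the differences was not tested.

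Promoter sequences were read for genes that moved together, to show what their start regions hold. Windows of 250 bases before the RefSeq start (GRCm38.p6) were found for 10482 of the 14084 genes, and motifs were searched on both strands. The CRX and OTX core TAATCC was in 14.9% of the lower genes' windows, 4.47% of the higher genes' and 6.32% of all compared, and in 10 of 16 rod phototransduction genes. The MAF core TGCTGA was in 19.7%, 18.5% and 15.5% of the same windows, close to equal in the lower and higher genes. CCAAT was in 24 of 27 mitosis genes and in 40.7% of all compared, and the cell cycle element TTTGAA in 12 of 27 and 12.5%. An E2F site (TTTGGCGC, TTTCCCGC, TTTGCCGC or TTTCGCGC) was in 8 of 29 replication genes and 3.84% of all. A match is a description and not a site of binding. The sequences below are for Sag and Pde6b, with TAATCC and TGCTGA in capitals, and for Top2a and Cdk1, with TTTGAA and CCAAT in capitals, each motif on either strand. They lie at chr1:87803430-87803679 (plus), chr5:108388123-108388372 (plus), chr11:99024190-99024439 (minus) and chr10:69352913-69353162 (minus).
Sag: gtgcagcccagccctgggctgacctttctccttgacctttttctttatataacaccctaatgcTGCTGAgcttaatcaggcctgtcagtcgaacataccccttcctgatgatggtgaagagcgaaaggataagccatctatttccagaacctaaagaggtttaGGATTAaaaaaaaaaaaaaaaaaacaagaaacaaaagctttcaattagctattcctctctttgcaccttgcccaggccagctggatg
Pde6b: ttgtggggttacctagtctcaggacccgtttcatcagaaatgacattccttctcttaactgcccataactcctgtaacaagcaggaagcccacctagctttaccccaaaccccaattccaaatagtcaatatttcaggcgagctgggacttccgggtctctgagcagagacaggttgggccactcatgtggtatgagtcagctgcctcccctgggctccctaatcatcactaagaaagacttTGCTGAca
Top2a: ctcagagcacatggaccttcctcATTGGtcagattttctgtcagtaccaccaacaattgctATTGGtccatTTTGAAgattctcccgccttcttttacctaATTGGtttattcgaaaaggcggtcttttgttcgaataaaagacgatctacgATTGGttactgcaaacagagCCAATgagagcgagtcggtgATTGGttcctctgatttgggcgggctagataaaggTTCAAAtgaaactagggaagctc
Cdk1: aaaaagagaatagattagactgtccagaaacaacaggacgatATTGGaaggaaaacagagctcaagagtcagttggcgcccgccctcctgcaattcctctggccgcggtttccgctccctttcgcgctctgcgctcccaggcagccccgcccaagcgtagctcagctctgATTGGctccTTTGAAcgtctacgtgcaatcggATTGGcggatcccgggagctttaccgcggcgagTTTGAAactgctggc
The Sag window held 1 copy each of the CRX core and the MAF core, and the Pde6b window held no CRX core in these letters and 1 MAF core. The Top2a window held 6 CCAAT and 2 TTTGAA matches, and the Cdk1 window 3 and 2. Cdk1, the mitotic kinase, was at 74.9 and 81.6 CPM against 23.6, 36.2 and 40.7.

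Transcript shares were examined after the gene levels were seen. Of 34491 transcripts of 4862 genes with at least 10 TPM in all 5 libraries, 30 in 23 genes had shares that differed by at least 20 percentage points between the nearest libraries of the sets. Sag-201, a transcript of 16 exons of the rod arrestin gene, took 39.4% and 48.2% of the gene's TPM in the low-Nrl libraries and 87.4%, 90.5% and 93.1% in the others. Sag was at only 12.8 and 11.8 TPM in the low-Nrl libraries, and at a minimum of 20 TPM the count fell from 30 to 11 without Sag. Ttc8-202, a transcript of a gene of the ciliary BBSome, took 74.1% and 63.3% against 33.7%, 32.3% and 36.6%. Ttc8-201, which has in addition a 30-base exon 2 (chr12:98937120-98937149), took 0% and 7.74% against 30.2%, 20.7% and 33.7%. Shares are kallisto estimates and have no interval here.

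The later libraries, which the division did not use, gave tests. A slope with day over days 21 to 35 was fitted with limma to log2(CPM + 1) in 11 libraries with source as a covariate; of 14836 genes, 303 rose (2.04%) and 306 fell (2.06%) at an adjusted p under 0.05. Of the 679 genes lower in the low-Nrl libraries at day 18, 677 were tested, and 31 rose (4.58%) and 47 fell (6.94%). Of the 841 higher genes, 824 were tested, and 3 rose (0.364%) and 7 fell (0.85%). None of the 34 mitosis genes and 1 of 25 progenitor genes passed the test, with median changes of -0.862 and -0.855 (log2, day 21 to 35). On simulated counts this fit recovered 11% of 2-fold changes, so few calls do not show steady levels.

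Rod phototransduction genes rose in 9 of 23 tested, with none falling. Pde6a, a phosphodiesterase subunit, rose by 5.52 ± 0.41 (SE, log2, day 21 to 35; adjusted p = 0.000166, limma), and Gnat1 by 4.77 ± 0.49 (adjusted p = 0.00172, limma). Gnat1 thus did not separate the day 18 sets but rose later. Cacna1f, the calcium channel of the photoreceptor synapse, rose by 4.10 ± 0.61 (adjusted p = 0.00601, limma). The rod count moved with the libraries: it was 5 without ESC day 21 replicate 2, 4 without iPSC day 21 replicate 1, 5 without iPSC day 35 and 15 without ESC day 21 replicate 3. The edgeR test, on the 15 of these genes it could take in, called 1.

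Müller glia markers rose beside the rod genes, in 3 of 16 tested with none falling, and with a median change of 1.42 against 2.46 for the rod list. Aqp4, a water channel of Müller glia, rose by 4.70 ± 1.07 (adjusted p = 0.0327, limma), and Clu and Abca8a were the other two. The library labelled ESC day 35 stood apart, with Aqp4 at 222 CPM against 0.521 to 29.2 before day 35 and 5.67 in iPSC day 35. Its Rlbp1, the retinal carrier of Müller glia, was at 124 CPM, and Grm6, the glutamate receptor of ON bipolar cells, at 78.8 CPM against 0 to 1.15 before day 35. The 16 glia markers summed to 2814 CPM in that library and to 350 to 1184 in the other 10. Its fibroblast markers also had the highest sum of the 11, 253 CPM against 25.7 to 159. The pigment epithelium list was at 2514 CPM against 760 to 1756, but Ttr alone gave 2072 CPM of its sum. In the other 10 libraries that list was mostly Otx2, a neurogenic factor also counted there, at 649 to 1631 CPM. Otx2 was at 311 CPM in ESC day 35. Without the ESC day 35 library, none of 15 glia markers and 6 of 23 rod genes rose. The library labelled iPSC day 35 had a glia sum of 350 CPM and a rod sum of 21023 CPM. The glia count was 1 without ESC day 21 replicate 2, 1 without iPSC day 21 replicate 1 and 7 of 15 without iPSC day 35. Day 35 had 1 library per source, and the part of glia in the slopes was not tested.

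Cone genes fell in 3 of 14, all of which were lower in the low-Nrl libraries at day 18. Opn1sw fell by 4.58 ± 1.06 (adjusted p = 0.0353, limma), Pde6c by 4.92 ± 0.52 and Ccdc136 by 2.96 ± 0.57. The cone count was 1 without ESC day 35 and 1 without iPSC day 35. The Opn1sw call was lost in 11 of 21 alternative settings, of which 2 are the same exclusion of iPSC day 25 replicate 1. Otx2 fell by 1.74 ± 0.35 (adjusted p = 0.0208, limma). Nrl itself changed by 0.82 ± 0.75 (adjusted p = 0.601, limma), Mki67 by -2.06 ± 1.12 (adjusted p = 0.335, limma) and Fgf15 by -4.25 ± 1.30 (adjusted p = 0.0852, limma), none of which passed the threshold. Ribosomal protein genes fell in 12 of 38. Comparing days 25 to 35 with day 21 as 2 levels, in place of a slope, called 0 genes (1705 at an unadjusted p under 0.05), and leaving out iPSC day 21 replicate 1 gave 90 rising and 77 falling genes.

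**Figure D4:**
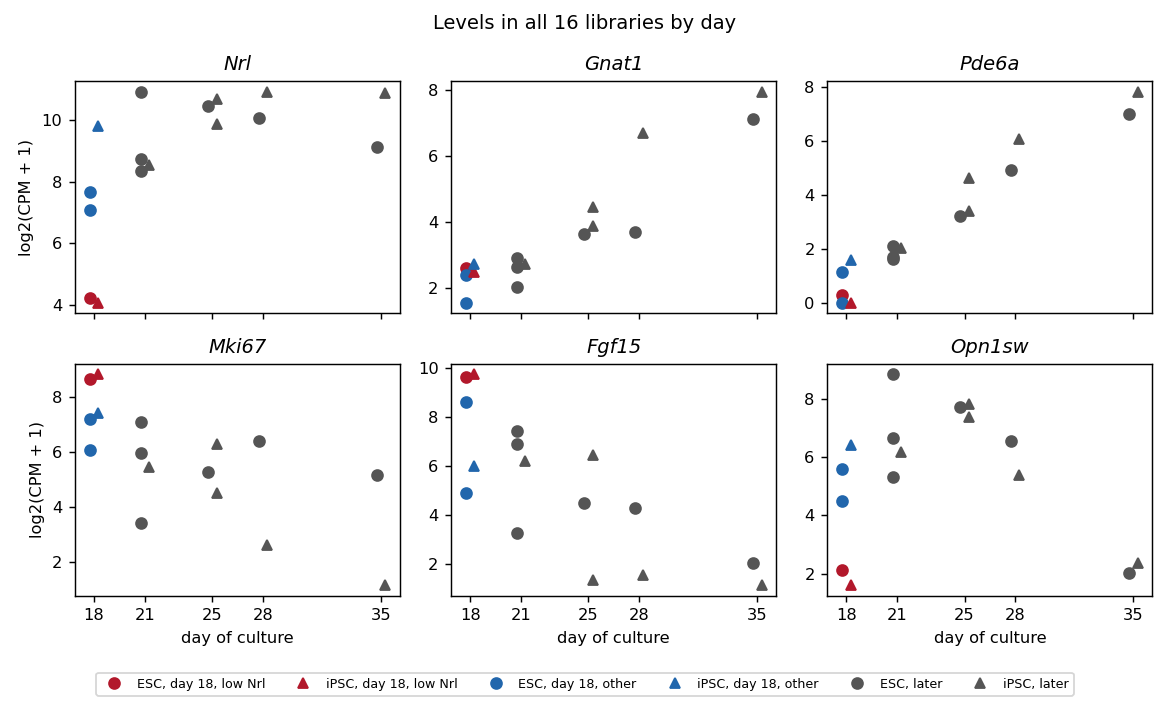
Log2(CPM + 1) of 6 genes by day of culture in all 16 libraries, circles for ESC and triangles for iPSC, red for the low-Nrl and blue for the other day 18 libraries, grey for later days. Gnat1 and Pde6a rise after day 21 and Opn1sw falls by day 35, while the red points of Fgf15 and Mki67 lie above all others.

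Because 1 low-Nrl library carries each source label, the source contrast at day 18 was also tested. With limma on all 16 libraries and 1 mean per group, 0 of 15202 genes (0%) differed between iPSC and ESC at an adjusted p under 0.05 (smallest 0.914), with 488 at an unadjusted p under 0.05 and 0 by edgeR. The median 95% interval of a gene, with no adjustment over genes, reached 0.80 (log2) to each side, and the test on adjusted p-values needs larger differences than that, so the absence of calls does not show that the sources were alike. For Nrl the difference was 0.60 (interval -2.90 to 4.11).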

How the data were processed

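GFP-positive sorted cells were profiled by stranded mRNA-seq in 16 libraries. The submitters' processing notes name Trimmomatic 0.36, kallisto 0.42.5, edgeR and the build GRCm38.p4. The gene table deposited by the authors holds a transformed score; CPM was recovered as 2 to the power of the square root of (value + 1), minus 1. For 8493 of 8688 genes (97.8%) the recovered CPM and the deposited TPM kept a constant ratio across libraries, at a tolerance of 0.01 (log2). The deposited estimated counts and TPM cover 65535 transcripts, 65096 of which matched GENCODE for GRCm38, and gene sums are complete for 10847 genes. Estimated counts were rounded for edgeR and DESeq2.

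The day 18 sets were split at 50 CPM of Nrl and compared without a test on log2(CPM + 1), for genes at 1 CPM or more in 2 libraries, calling no overlap and 2-fold. Fold changes on this scale understate the change of low genes. Slopes over days 21 to 35 and the source contrast used limma 3.58.1 with trend in R 4.3.3, with Benjamini-Hochberg adjustment; edgeR 4.0.16 and DESeq2 1.42.0 were alternatives. Both fits were tested on simulated counts with known changes. The slope fit recovered 11% of 2-fold and 89% of 4-fold changes, and the source contrast 9% and 72%, so most simulated 2-fold changes were missed. The simulation gave every gene the same relative spread beyond counting noise, and low genes were not among those changed. It held no differences between cultures that many genes share, so these shares need not hold in the measured libraries. Between 3818604 and 21787582 estimated counts per library limit how precisely low genes are measured.

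Members, gene lists and rules were chosen with earlier results of these data known. Named genes were fixed landmarks, the 12 largest separated differences each way among genes with a mean of at least 5 CPM and no predicted model, up to 6 separated members of each list and other cell type markers; part of these genes is left out of the text. Correlations with Nrl over 5 libraries are not given. The Hox genes, transcript shares, motifs, printed promoters and the test of slope differences between sources were chosen after values were seen. Eno1b, Rpl3-ps1, Rps12 and other genes with near-identical copies share reads, and are not described. Promoters are from RefSeq.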

Additional observations from a re-analysis of the deposited data

How the results depend on the processing

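At day 18, 841 higher and 679 lower genes were called. Both counts stayed within 1.5 times of these under a pseudocount of 0.1, rescaled CPM, TMM factors and other CPM filters. The 2 libraries whose Y-linked genes go against their source were also left out. That left only iPSC in the low-Nrl set and only ESC in the other. Source and Y-linked level then ran with the division, so that exclusion cannot show whether the counts hold. Leaving out each library gave 853 to 1211 higher and 705 to 846 lower genes. The no-overlap condition is easier to meet with fewer libraries, so counts from any exclusion do not show that the calls are stable. A 4-fold minimum gave 55 and 157. TMM factors gave 750 higher and 764 lower genes, a change in the share of higher calls. The slope with day depended more on the setting: against 303 rising and 306 falling genes, no filter gave 185 and 151, DESeq2 543 and 538, days 25 to 35 against day 21 gave 0 and 0, and leaving out iPSC day 25 with intermediate Y-linked levels gave 191 and 183. Leaving out each of the 11 libraries gave 90 to 341 rising and 77 to 326 falling genes, lowest without iPSC day 21 replicate 1. The library with intermediate Y-linked levels is iPSC day 25 replicate 1, so its 191 and 183 are the same exclusion. Other libraries that moved a count by over 1.5 times were ESC day 21 replicate 2 (146 and 149), and for falling genes ESC day 35 (180) and iPSC day 35 (152). The cause was not tested. The replicate block gave 298 rising and 293 falling genes and put Fgf15 past the threshold (adjusted p = 0.0276, limma). Signs were compared for the named or listed genes called in the main slope fit and for Nrl, Mki67 and Fgf15. None of these slopes changed sign in any setting, and the other named genes were not checked. At day 18 the same-numbered ESC and iPSC libraries had deviations from their source means that correlated at 0.616 and 0.235, over only 2 pairs. The replicate 1 pair is the low-Nrl set, so its value cannot be told apart from the division. The 2 iPSC libraries deviate from their mean by equal and opposite amounts, so the correlations are not separate evidence of pairing. The block in the source contrast gave 0 genes. The source contrast gave 0 genes in either direction in all settings except no filter, with 6 higher in iPSC, and leaving out each day 18 library gave 0 to 0. Slopes in iPSC and ESC differed for 0 genes (smallest adjusted p 0.414). Transcripts past the share gap numbered 4 at 30 percentage points and 59 to 135 without 1 library, where the gap is also easier to reach. Depth and the small number of libraries limit low genes.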
